A study of Mus musculus with 15 samples.

Results

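A pair of hairpins against the same gene, Siva1, was compared directly. The comparison takes 8 of the 15 arrays of the series, chosen by their labels: 4 arrays of mouse lung cancer cells with the hairpin shSiva2 and 4 with the hairpin shSiva1, with 0 of the 7 control arrays in the test. The cells were LSZ2 and LSZ4, a pair of mouse non-small cell lung cancer lines, and each line gave 2 arrays per hairpin. All 8 samples carried a short hairpin RNA in the pLKO TRC2.0 vector, delivered by virus made in 293T cells, and were kept in puromycin (2 μg/μl in the labels) for 3 days before plating. RNA was collected 2 days later, and 200 ng of it was labelled for 1-colour Agilent arrays. The control arrays, used only as a reference level, came from the same lines with shGFP, kept in puromycin, or shLacZ, which was not selected, in 3 and 4 arrays.

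A short hairpin RNA is transcribed from the integrated vector, cut by the enzyme Dicer and loaded into an Argonaute protein, which then finds transcripts by pairing with the guide strand. Siva1, the target, is a gene that p53 activates, and its protein is known for a role in apoptosis. A pair of hairpins against 1 gene has the target in common and differs in guide sequence, so the comparison shows what differs between cells that were treated alike and meant to lose the same transcript. The hairpin sequences were not used here, and no match of a guide to other transcripts was searched.

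The 75th percentile signal was 492 to 804 intensity units in the shSiva1 arrays and 416 to 751 in the shSiva2 arrays (exact permutation test, two-sided, p = 0.286), and 53.1% to 60.1% against 50.2% to 54.9% of probes were well above background (p = 0.0857; the smallest p that 4 against 4 arrays allow is 0.0286). All 8 arrays were on 1 slide, with the 4 shSiva1 arrays in row 1 and the 4 shSiva2 arrays in row 2, so the slide row and the hairpin cannot be told apart. Whether replicates were separate cultures is not stated in the labels, and p-values measure the spread between these samples only. The epithelial genes Krt8, Krt18, Krt19, Cdh1, Epcam, Cldn3 and Cldn7 were well above background on 8 of 8 arrays, and Cldn4 on 4 shSiva1 and 2 shSiva2 arrays. Of a fuller list of 29 epithelial genes 25 were above it on all 8 arrays and 3, Cldn1, Elf5 and Ovol1, on 0. Of 27 lung alveolar and airway markers 14 were above background on all 8 arrays, Abca3, Sftpd and Lamp3 of alveolar cells among them, and 7 on 0 arrays, Nkx2-1 and Sftpc among them. Also above background on 0 arrays were Cdh5, Tek, Hbb-bt, Lum, Dcn, Pdgfra and Pdgfrb, markers of endothelial, blood and stromal cells. Of such markers Cd3e, Kdr, Itgam, Csf1r, Pecam1 and Hba-a1 were above background on all 8.

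Siva1 itself read higher with shSiva2 than with shSiva1. Levels below are log2 signals after each array's 75th percentile was set to 0, always in the order LSZ2 replicates 1 and 2, then LSZ4 replicates 1 and 2. One Siva1 probe spans an intron: its 60 bases come from mm9 chr12:113885242-113886093, a span of 852 bases. It is shown because it reads spliced Siva1 transcript, the molecule both hairpins are aimed at.
Siva1 probe: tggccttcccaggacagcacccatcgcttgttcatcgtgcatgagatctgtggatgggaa
It read 2.98, 3.29, 2.56 and 3.40 with shSiva1 and 3.83, 3.72, 3.70 and 4.35 with shSiva2. All 4 shSiva2 arrays lay above all 4 shSiva1 arrays, and all 8 lay below the 7 control arrays, which read 6.01 ± 0.56 (SD, n = 7) with a range of 5.50 to 6.75. The difference between hairpins was 0.84 (SE 0.23) on the log2 scale, or 1.79-fold, with an adjusted p of 0.0293 (limma, Benjamini-Hochberg over all genes tested). The other Siva1 probe (chr12:113887275-113887334, mm9) read 0.75 higher (SE 0.24, adjusted p = 0.0493 in a fit over probes). The call stood near the threshold: it was lost without LSZ2 shSiva1 replicate 1 (adjusted p = 0.0880), LSZ2 shSiva2 replicate 1 (0.0704), LSZ2 shSiva2 replicate 2 (0.05002) or LSZ4 shSiva2 replicate 2 (0.0695). It was also lost with all 15 arrays in the fit (0.0552) or with no filter on dim probes (0.0689). Within a line the difference was 0.64 in LSZ2 (adjusted p = 0.362) and 1.04 in LSZ4 (adjusted p = 0.0716).

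**Figure D1:**
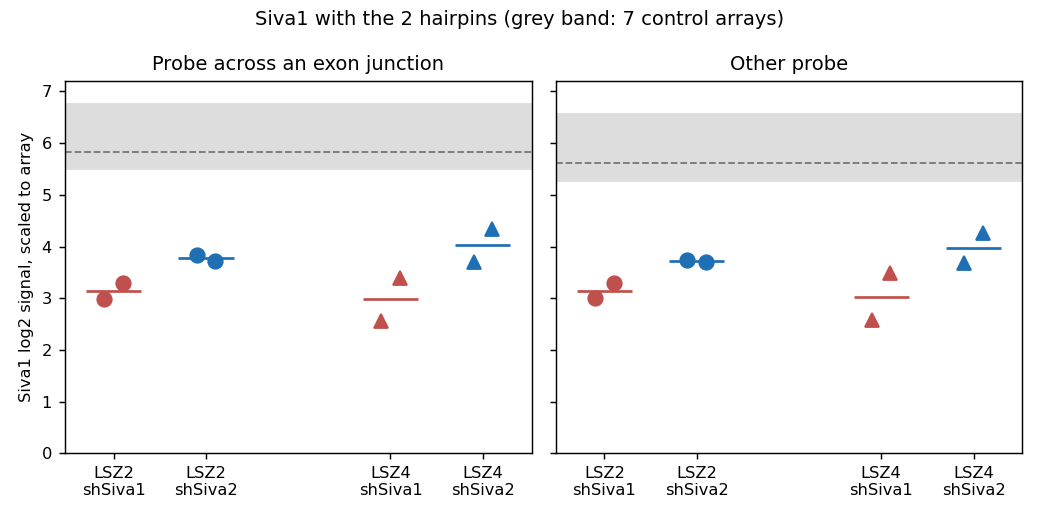
Log2 signal of both Siva1 probes in each of the 8 arrays (circles LSZ2, triangles LSZ4; short lines are means of 2 arrays), with the range of the 7 control arrays as a grey band and their median dashed. The shSiva2 points lie above the shSiva1 points of their line in both probes, and every point lies below the control band.

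The cells with the 2 hairpins differed in a large share of the transcripts measured. Of 21952 genes tested, 4878 (22.2%) differed at an adjusted p below 0.05, 2550 (11.6%) higher and 2328 (10.6%) lower with shSiva2. Of the called genes 2319 differed at least 2-fold, 886 higher and 1433 lower, and at least 4-fold there were 164 higher and 553 lower. Genes above background on 4 of 4 arrays of 1 hairpin and 0 of the other, the bounds given below, numbered 181 lower and 9 higher. With probes required above background on all 8 arrays, the calls at any fold were 2569 higher and 1782 lower. All 4 shSiva2 arrays lay above all 4 shSiva1 arrays for 2825 genes (12.9%) and below them for 2111 genes (9.62%). The median change of all genes was 0.14, so list medians below are read against that value. With normexp background correction 2401 genes were called, and without LSZ2 shSiva1 replicate 1 the count was 3236.

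The 12 largest rises with shSiva2 included enzymes of detoxification and lipid metabolism and genes of mucosal epithelium. Gsta3, a glutathione transferase, read -4.34, -3.99, -5.45 and -5.71 with shSiva1 and 1.08, 0.58, 0.84 and 1.54 with shSiva2, a rise of 5.88 (SE 0.35, adjusted p = 6.52e-06) on the log2 scale. The control arrays ran from -6.60 to -3.42, so the shSiva2 arrays lay above them while the shSiva1 arrays lay within that range. Cbr3, a carbonyl reductase, read 0.84, 1.42, 0.12 and 0.77 with shSiva1 and 4.90, 4.30, 5.77 and 6.74 with shSiva2, a rise of 4.64 (SE 0.46, adjusted p = 0.000111). Aqp8, a water channel gene of the gut, read 0.81, 1.27, -0.74 and -0.04 with shSiva1 and 3.47, 3.43, 5.98 and 6.12 with shSiva2, and rose by 4.42 (SE 0.68). For Aqp8 and Cbr3 all 4 shSiva1 arrays lay below the control range. Degs2, an enzyme that modifies ceramide precursors, rose by 5.70 (SE 0.59), Krt4, a keratin of stratified mucosa, by 4.54, Il1rn, which encodes an antagonist of the interleukin-1 receptor, by 4.04 and the surface protein gene Ly6d by 3.86. Misp3 rose by 5.45, Depp1 by 5.30, Vstm2l by 4.10, Phgr1 by 4.01 and Palm3 by 3.65. In the lower hairpin some arrays gave no signal well above background: Gsta3 and Vstm2l were above it on 2 of 4 shSiva1 arrays, and Degs2, Depp1 and Phgr1 on 3. With normexp background correction Vstm2l lost its call (adjusted p = 0.105).

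The largest falls, 11 of which are named here, were genes that read above the controls in shSiva1 cells. Aqp1, a water channel, read 5.89, 6.33, 5.59 and 6.15 with shSiva1 and 0.96, 0.74, -2.79 and -1.75 with shSiva2, which fell by 6.70 (SE 0.53, adjusted p = 2.77e-05), or 104-fold. The control arrays read 1.48 to 4.59, between the hairpins. Chrna1, the alpha subunit of the muscle acetylcholine receptor, read 1.23, 1.97, 1.29 and 1.32 with shSiva1 and -4.08, -3.66, -6.52 and -5.81 with shSiva2, which fell by 6.47 (SE 0.39). S100b, a calcium-binding protein, read 0.92, 1.39, 2.15 and 2.62 with shSiva1 and -4.75, -4.57, -3.65 and -3.48 with shSiva2, which fell by 5.88 (SE 0.18). The 4 shSiva2 arrays were thus the low arrays in both lines for each of these genes, with no overlap. The genes were picked by that same difference, so this order describes them and is no separate result. The natural killer lectin-like receptor genes Klrc1 and Klrc3 fell by 6.24 and 5.55. They are close paralogues whose probes may read each other's transcripts, which was not tested. Ivl, which encodes involucrin of the cornified envelope, fell by 5.73, and Cd1d1, a lipid-presenting molecule, fell by 5.69. Cyth4, an exchange factor for Arf proteins, fell by 5.61, and the scaffold gene Whrn fell by 5.35. The adhesion receptor gene Adgrg1 fell by 5.34 and the chemokine gene Ccl7 by 5.22. On the shSiva2 side Aqp1, Cyth4 and Whrn were well above background on 4 of 4 arrays, S100b on 3 and the other 7 on 2. The value given is that of the probe with the highest mean signal. The 3 probes of Cd1d1 ran from -5.69 to -1.72, and the 2 probes of Chrna1 from -6.47 to -3.53, of Whrn from -5.35 to -2.52 and of Klrc1 from -6.24 to -4.96. With probes required above background on all 8 arrays the call of Cd1d1 was lost (adjusted p = 0.0787).

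The named rises and falls were also set against the controls. In 11 of the 11 falls all 4 shSiva1 arrays lay above all 7 control arrays, and in 4 of them, Aqp1, Klrc1, Cyth4 and Klrc3, all 4 shSiva2 arrays also lay below all controls. Among the rises all 4 shSiva2 arrays lay above the control range for 6 genes, and all 4 shSiva1 arrays lay below it for 7. Misp3 and Krt4 were in both of these groups. The genes were picked by the largest difference between hairpins, with signal needed on all 4 arrays of the higher hairpin. A place outside the control range is therefore partly set by that choice, and these counts only describe the named genes. The same counts over all genes tested were not made. The control arrays were on another slide, in another vector and partly unselected, so a level set across them cannot be told apart from those differences.

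**Figure D2:**
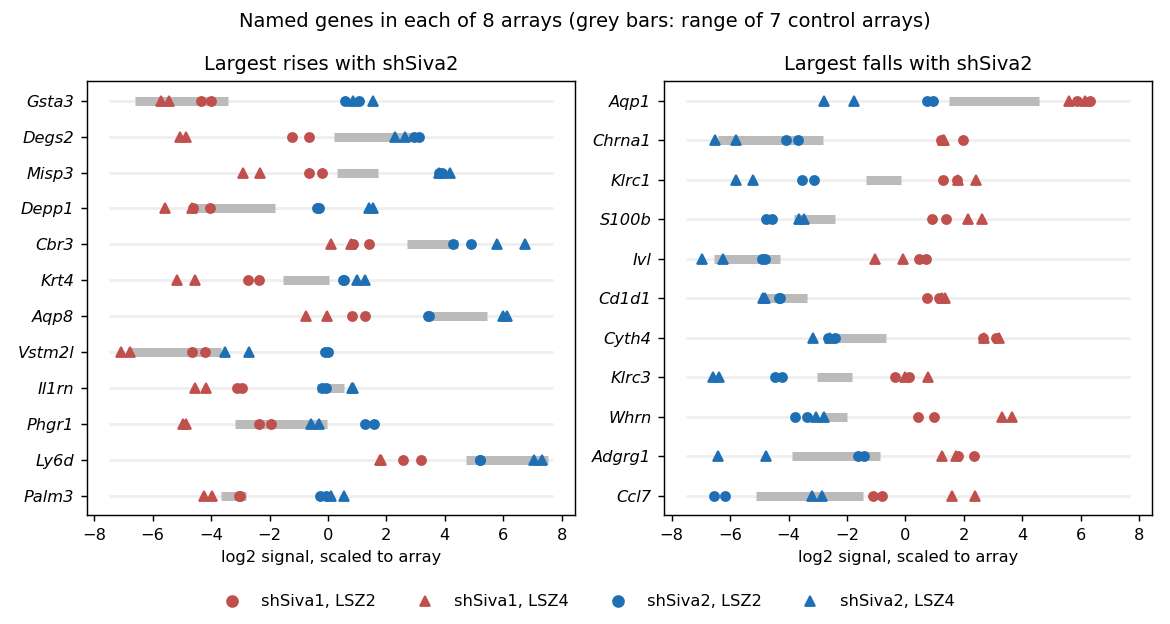
Log2 signal of the 12 genes with the largest rise and of 11 of those with the largest fall in each of the 8 arrays (circles LSZ2, triangles LSZ4, red shSiva1, blue shSiva2), with grey bars for the range of the 7 control arrays. For the falls the red points lie to the right of every grey bar, and for 6 of the rises, Gsta3 and Krt4 among them, all blue points lie to the right of the bar.

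Some genes were measured with 1 hairpin only. Sdc3, a syndecan, the matricellular gene Ccn5, the basal keratin gene Krt17 and Cck, the precursor of cholecystokinin, were well above background on 4 of 4 shSiva1 arrays and 0 of 4 shSiva2 arrays. They were at least 122-fold, 24.3-fold, 24.3-fold and 17.1-fold lower with shSiva2. These folds are bounds, since the dim side is set at the higher of the probe's own signal and the lowest signal well above background on its array, and they hold for the processed signal only. With normexp background correction Sdc3, Ccn5, Krt17 and Cck kept their calls, but their fitted changes of -4.86, -2.77, -2.82 and -2.34 on the log2 scale were smaller than the bounds of 6.93, 4.61, 4.60 and 4.10 on that scale. In the other direction Spib, an ETS family transcription factor gene, was at least 11.4-fold higher with shSiva2. Sftpb, which encodes surfactant protein B, was at least 8.73-fold, Fam131a 4.71-fold and the cytochrome P450 gene Cyp2b10 3.59-fold higher. Bounds of this kind numbered 181 among genes lower and 9 among genes higher with shSiva2. The 4 higher genes lost their calls with normexp background correction (adjusted p = 0.0861 for Spib, 0.152 for Sftpb, 0.332 for Fam131a and 0.574 for Cyp2b10).

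Interferon-stimulated genes, the antiviral genes that cells turn on through STAT and IRF factors, were called lower more often than higher with shSiva2. Of 31 measured, 11 were called lower and 4 higher, beside 10.6% and 11.6% of all genes, with a median change of -0.28 against 0.14 for all genes. Many of these genes carry in their promoters an interferon-stimulated response element, here searched on both strands as GAAA, any 2 bases, then GAAA, in the 250 bases before the start of transcription. It was found in 2.98% of 32851 promoters of RefSeq (GRCm38.p6). Counted by gene, 936 of 27025 (3.46%) held it in at least 1 promoter, and so did 13 of the 30 list genes with a promoter there. Of the called members with a promoter, 5 of 10 lower ones and 0 of 2 higher ones held it. The sequences of those 5 are shown because they are the called genes with the motif; capitals mark its letters, and each runs 5′ to 3′ on the strand of the gene.
Ifit3 (chr19:34583367-34583456, +): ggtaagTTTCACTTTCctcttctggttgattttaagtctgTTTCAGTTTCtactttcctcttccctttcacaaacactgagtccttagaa
Oas1a (chr5:120907526-120907579, -): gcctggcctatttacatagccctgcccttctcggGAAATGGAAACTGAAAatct
Gbp2 (chr3:142620564-142620653, +): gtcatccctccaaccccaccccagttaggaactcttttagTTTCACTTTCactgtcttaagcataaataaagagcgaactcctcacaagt
Igtp (chr11:58199482-58199555, +): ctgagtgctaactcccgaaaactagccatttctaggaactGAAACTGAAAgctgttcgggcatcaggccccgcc
Isg15 (chr4:156200835-156200924, -): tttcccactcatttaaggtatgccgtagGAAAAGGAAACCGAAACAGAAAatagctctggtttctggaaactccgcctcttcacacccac
Oas1a holds 2 overlapping matches, Isg15 3 and Ifit3 2 apart from each other. A match is a description of the letters and not evidence of binding, and 4 of 12 list genes that were not called held it too.

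The 5 genes with printed promoters ranged from a small to a large difference. Ifit3, which blocks viral translation, read -0.90, -0.75, -1.41 and -2.34 with shSiva1 and -5.72, -5.38, -6.08 and -5.73 with shSiva2. It was above background on 0 of 4 shSiva2 arrays, and its fall was at least 11.2-fold. Gbp2, a guanylate-binding protein gene, was at least 4.21-fold lower, also with 0 of 4 shSiva2 arrays above background. These 2 of the 11 lower genes passed the filter on dim probes through their shSiva1 arrays alone. With normexp background correction they kept their calls, and their fitted changes of -2.18 and -1.15 on the log2 scale were smaller than the bounds of 3.49 and 2.07 on that scale. Oas1a, a sensor of double-stranded RNA, read -0.73, -0.25, -1.71 and -1.20 with shSiva1 and -3.81, -3.78, -4.43 and -3.57 with shSiva2, which fell by 2.92 (SE 0.26). Igtp, an interferon-induced GTPase, fell by 2.16 (SE 0.18), and the ubiquitin-like Isg15 by 0.83 (SE 0.18). In each of the 5 the hairpins did not overlap, and the shSiva2 arrays were the low ones. That order is largely set by the choice of genes called lower in the same arrays. It was found for 9.62% of all genes.

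The same list also held exceptions and other parts of the antiviral response. Ddx58, which encodes the RNA sensor RIG-I, fell by 2.08 (SE 0.17), Ifih1, encoding the sensor MDA5, by 1.62 (SE 0.45), Ifit2 by 2.89, Usp18, which removes Isg15 from proteins, by 1.77, and Psmb8, a subunit of the immunoproteasome, by 1.95. Higher with shSiva2 were Dhx58, a relative of RIG-I, by 1.70 (SE 0.15), the peptide transporter gene Tap1 by 0.78, Iigp1 by 0.51 and Irf9, part of the factor that binds the response element, by 0.49. Among 22 genes of double-stranded RNA sensing and signalling 4 were called higher and 4 lower, a share of 36.4% against 22.2% of all genes. Ifnar1, a chain of the interferon receptor, rose by 1.59, the kinase gene Ikbke by 1.72 and Mavs, the adaptor of both sensors, by 0.73. Dhx58 lost its call with normexp background correction (adjusted p = 0.179). Over the alternatives the interferon list had between 6 and 13 lower calls and its median stayed 0.24 to 0.48 below that of all genes.

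Of 21 genes that make and use small RNAs, the machinery through which both hairpins act, 1 was called higher and 4 lower with shSiva2, a share of 23.8% against 22.2% of all genes. The Argonaute gene Ago1 read -0.61, -0.44, -0.58 and -0.58 with shSiva1 and -1.14, -1.13, -1.43 and -1.54 with shSiva2, which fell by 0.76 (SE 0.15, adjusted p = 0.00510). Ago4 was at least 2.58-fold lower, Drosha, the nuclear enzyme of microRNA processing, fell by 0.71, and Tut4, which adds uridines to microRNA precursors, by 0.56. Xpo5, the exporter of hairpin precursors, rose by 0.79. Dicer1 read -0.40 (adjusted p = 0.331) and Ago2, the Argonaute that cuts its targets, -0.39 (adjusted p = 0.0800), so neither passed the test. Ago1 and Ago4 lost their calls with normexp background correction (adjusted p = 0.0554 and 0.162).

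Mesenchymal and matrix genes were the list with the lowest median. Of 24 measured, 12 were called lower and 4 higher with shSiva2, and the median change was -0.66. This is a share of 66.7% against 22.2% of all genes (10.6% lower and 11.6% higher). Col5a1, a fibrillar collagen chain, read 2.66, 3.17, 3.17 and 3.62 with shSiva1 and -0.91, -0.59, -1.57 and -1.13 with shSiva2, which fell by 4.21 (SE 0.26, adjusted p = 7.98e-06). Fibronectin, Fn1, read 5.61, 6.01, 5.67 and 6.12 with shSiva1 and 4.09, 4.25, 3.77 and 3.76 with shSiva2, which fell by 1.88 (SE 0.19). Both genes, picked as the list members with the smallest p, were thus lower on every shSiva2 array. The control arrays read -0.18 to 0.74 for Col5a1, between the hairpins, and 1.70 to 3.18 for Fn1, below both hairpins. The transcription factor genes Snai2, Snai1 and Zeb2, which repress epithelial genes, fell by 2.15, 1.86 and 1.14, and the cadherin gene Cdh2 by 1.14. The collagen gene Col6a1 fell by 1.47, the integrin gene Itga5 by 1.03, Timp1 by 0.89 and the membrane protease gene Mmp14 by 0.69. Col1a1 was at least 3.16-fold lower, with 4 of 4 shSiva1 and 0 of 4 shSiva2 arrays above background, and lost its call with normexp background correction (adjusted p = 0.0823). Going the other way, smooth muscle actin Acta2 rose by 2.06, the basement membrane collagen chains Col4a1 and Col4a2 by 1.30 and 1.15, and the protease inhibitor gene Timp3 by 1.19. Timp3 read 2.12 higher in LSZ2 and 0.26 higher in LSZ4. Of 15 fibroblast markers on the array 5 were measured, with 0 called higher and 2 lower in the limma test (also 0 and 2 at an unadjusted p under 0.05), and 1 of the 5 had a change above 0. The 2 were Col1a1, which is in both lists, and Pdgfrl, a relative of the platelet-derived growth factor receptors, which fell by 1.46 (SE 0.25, adjusted p = 0.00285). Of the 15 markers 10 were above background on 0 arrays. The summed signal of the list, unlogged after each array's scaling, was 422 to 854 with shSiva1 and 407 to 942 with shSiva2. Col1a1 and Pdgfrl read below 0 on the log2 scale on every array of both hairpins, so this sum rests on brighter markers. The part of stray stromal RNA in the matrix genes was not tested.

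Epithelial genes were called higher more often than lower. Of 26 measured, 8 were called higher and 1 lower, with a median change of 0.43. This is a share of 34.6% against 22.2% of all genes (11.6% higher and 10.6% lower). Cdh1, E-cadherin, read 4.08, 4.43, 3.74 and 4.18 with shSiva1 and 4.92, 4.92, 5.14 and 5.49 with shSiva2, a rise of 1.01 (SE 0.21, adjusted p = 0.00672). The tight junction gene Tjp3 rose by 1.28, the mucin gene Muc1 by 1.24, Grhl1, a factor of the epithelial programme, by 1.16, the protease gene Prss8 by 0.94, the trafficking gene Rab25 by 0.89, Krt7 by 0.79 and occludin, Ocln, by 0.57. Cldn3, a claudin, fell by 1.10. Krt8, Krt18 and Krt19 read 0.26, 0.25 and 0.26 higher and did not pass the test (adjusted p = 0.362, 0.390 and 0.427). Muc1 and Prss8 lost their calls with normexp background correction (adjusted p = 0.501 and 0.804), and Prss8 also without the cell line term (adjusted p = 0.0956).

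In TGF-beta and BMP signalling, 4 of 27 genes were called higher and 6 lower, a share of 37% against 22.2% of all genes (11.6% higher and 10.6% lower). Among ligands, Inhba, which encodes the activin A subunit, read 3.95, 3.13, 5.59 and 4.36 with shSiva1 and -0.63, -0.12, -0.04 and -0.56 with shSiva2, which fell by 4.60 (SE 0.37). Tgfb2, Tgfb3 and Bmp4 instead rose by 1.45, 1.35 and 1.39, and the receptor gene Tgfbr2 by 1.20. Among the signal carriers and targets, Smad4 fell by 0.70, the inhibitor gene Smad7 by 0.63, Id2 by 1.27 and the matrix gene Tgfbi by 3.34 (SE 0.25).

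Targets of NRF2, the transcription factor that answers oxidants and electrophiles, were called in 1 direction. Of 32 measured, 12 were called higher and 0 lower in the limma test (16 and 1 at an unadjusted p under 0.05), with a median change of 0.42. The share called was 37.5% against 22.2% of all genes (11.6% higher and 10.6% lower). Besides Gsta3 and Cbr3, the transferase gene Gsta4 rose by 1.99 (SE 0.23), Gstm1 by 1.24, Gstm4 by 1.21 and Gsta1 by 1.12. Nqo1, a quinone reductase, read -0.26, 0.01, 0.33 and 0.89 with shSiva1 and 1.29, 1.16, 3.11 and 3.41 with shSiva2, a rise of 2.00 (SE 0.28, adjusted p = 0.000733). The carbonyl reductase gene Cbr1 rose by 1.44, the cystine transporter gene Slc7a11 by 1.26, Gclc, which starts glutathione synthesis, by 0.97, and the pentose phosphate genes Pgd and G6pdx by 0.78 and 0.64. Gst genes have close paralogues, and reads of one by the probe of another were not tested. Over the alternatives between 5 and 14 members were called higher.

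NRF2 binds the antioxidant response element, whose core was searched on both strands as TGAC, any 3 bases, then GC in the same 250 bases. It was found in 10.2% of promoters. Counted by gene, it was in 11.5% of all genes with a promoter and in 8 of 28 such list genes. Of these list genes, 2 of the 10 called higher and 5 of the 17 not called held it. The Gsta3 promoter is shown because it belongs to the largest rise, with the motif in capitals.
Gsta3 (chr1:21240424-21240512, +, GRCm38.p6): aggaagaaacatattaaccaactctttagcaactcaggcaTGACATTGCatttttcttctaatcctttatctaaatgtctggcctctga
The other called gene with the core was G6pdx.

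Genes of cholesterol synthesis, which the factor SREBP2 controls as a group, were higher in part and lower in none. Of 24 measured, 9 were called higher and 0 lower in the limma test (12 and 0 at an unadjusted p under 0.05), with a median change of 0.51, the highest of the lists. The share called was 37.5% against 22.2% of all genes. Insig1, which holds SREBP in the endoplasmic reticulum, read -0.87, -0.52, -0.83 and -0.25 with shSiva1 and 0.32, 0.25, 0.69 and 0.82 with shSiva2, a rise of 1.14 (SE 0.18). The enzyme genes Hsd17b7, Mvd, Tm7sf2, Hmgcs1, Fdps and Sqle rose by 1.04, 0.90, 0.81, 0.79, 0.72 and 0.71, and the sterol carrier gene Stard4 by 0.75. These rises were small beside those of the named genes, and between 2 and 12 members were called higher over the alternatives. The list's median stayed 0.29 to 0.50 above that of all genes. In fatty acid synthesis 2 of 20 genes were called higher, Fasn (1.21) and Scd1 (0.73), and 2 lower, Gpam (-1.20) and Acsl3 (-0.96), a share of 20% that is near the 22.2% of all genes.

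Lysosomal genes were called higher more often than lower: of 42 measured, 13 were called higher and 2 lower, with a median change of 0.37. This is a share of 35.7% against 22.2% of all genes. Ctsa, which protects other lysosomal enzymes, read 4.54, 4.84, 4.46 and 5.19 with shSiva1 and 5.79, 5.67, 6.26 and 6.70 with shSiva2, a rise of 1.35 (SE 0.22). The peptidase gene Tpp1 rose by 1.41, the hexosaminidase gene Hexa by 1.32, the membrane protein gene Scarb2 by 1.24, the sialidase gene Neu1 by 1.01 and the calcium channel gene Mcoln1 by 0.85. Manba and Ppt1 fell by 0.51 and 0.48. In the autophagy list 4 of 41 genes were called higher and 3 lower, a share of 17.1%, below the 22.2% of all genes. Optn, a cargo receptor, fell by 1.24, Atg14 by 0.90 and Tfeb, a master regulator of lysosomal genes, by 0.88, while the cargo receptor gene Sqstm1 and Becn1 rose by 0.76 and 0.75. Among 47 genes of the mTOR pathway, which autophagy answers to, 2 were called higher and 7 lower, a share of 19.1%, near that of all genes. Sesn3 and Castor2, which restrain the kinase when amino acids run short, fell by 2.42 (SE 0.18) and 1.99 (SE 0.18), Ddit4l by 1.91, Rraga by 0.96, Ddit4 by 0.72 and Rps6kb2 by 0.52. The rises were Akt1s1, a brake within the mTOR complex, by 1.85 and Tsc2 by 0.72.

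**Figure D3:**
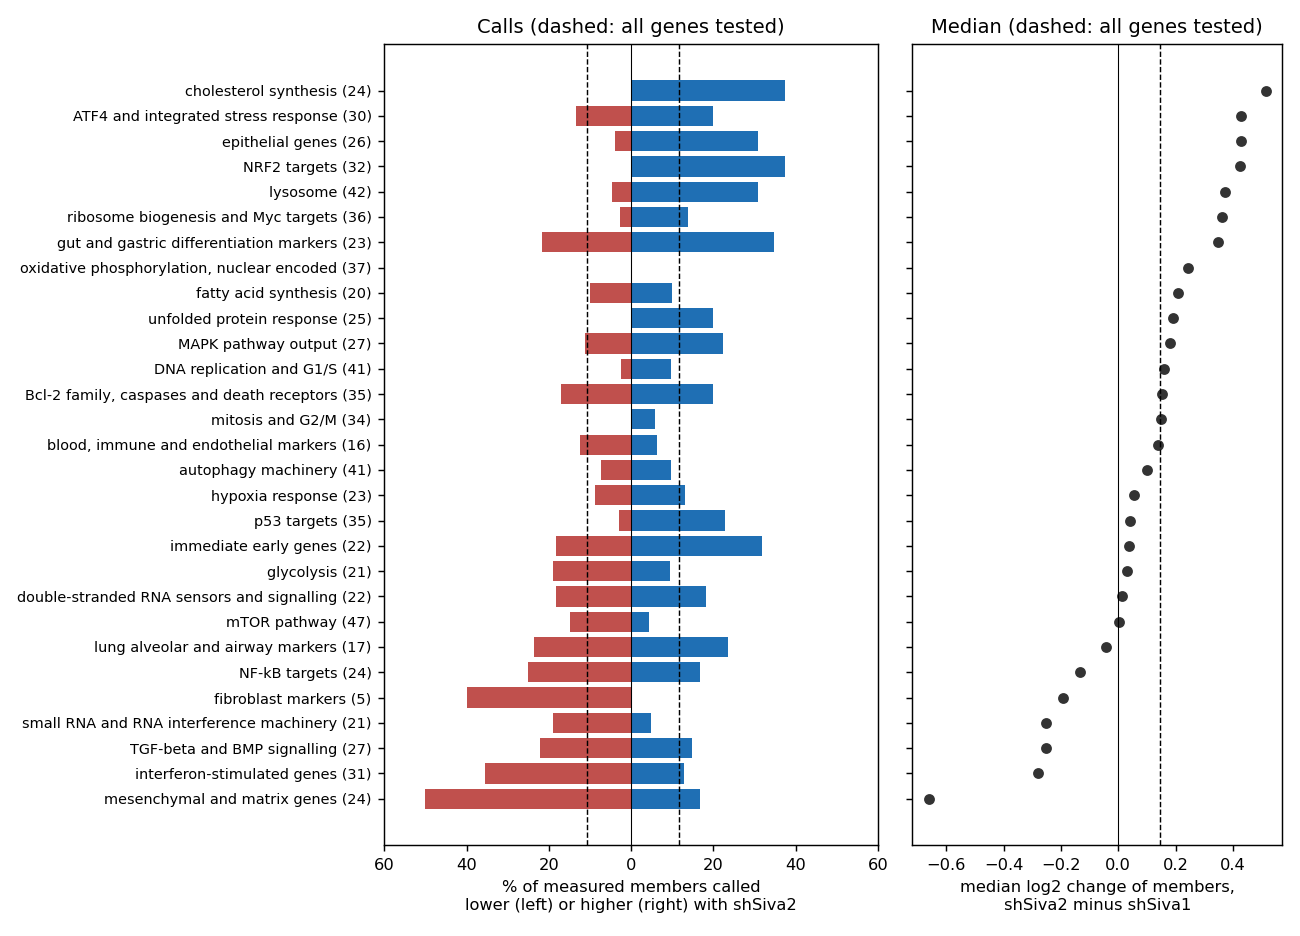
For each gene list (measured members in brackets) the left panel gives the percentage of members called higher (blue, right) and lower (red, left) with shSiva2, and the right panel their median log2 change, with dashed lines at 11.6%, 10.6% and 0.14 for all genes tested. Cholesterol synthesis has the highest median and mesenchymal and matrix genes the lowest.

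Of 35 targets of p53, the factor that also activates Siva1, 8 were called higher and 1 lower with shSiva2, and Siva1 is 1 of the 8. The share called, 25.7%, is near the 22.2% of all genes. The sulfatase gene Sulf2 rose by 1.72 (SE 0.23; adjusted p = 0.0598 with normexp background correction), Dcxr by 1.26, Bbc3, which encodes the death activator PUMA, by 0.94, Zmat3 by 0.88, Tigar, which lowers glycolytic flux, by 0.74, Pidd1 by 0.74 and Perp by 0.55. Ddit4 is the member that fell. The list's median of 0.04 lay below that of all genes, and its sign against all genes changed in 3 of 20 alternatives, so no direction is given for the list. Among 35 genes of the Bcl-2 family, caspases and death receptors 7 were called higher and 6 lower, a share of 37.1%. Death activators were on both sides: Bad and Bid rose by 1.13 and 0.73 and Bmf and Bok fell by 1.61 and 0.82. So were survival genes, with Bcl2l2 and Bcl2l1 up by 0.98 and 0.79 and Bcl2 down, falling by 0.71. The caspase genes Casp6 and Casp9 fell by 0.97 and 0.66. Cflar, an inhibitor of caspase 8, fell by 1.46 on the probe used, while its 3 probes ran from -1.46 to 0.22.

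Genes of cell division differed little. Of 34 mitosis and G2/M genes 2 were called higher and 0 lower in the limma test (6 higher and 0 lower at an unadjusted p under 0.05), a share of 5.88%, and of 41 DNA replication and G1/S genes 4 higher and 1 lower, a share of 12.2%, both below the 22.2% of all genes. The mitosis calls were Cdkn3, a phosphatase gene, at 0.69 (SE 0.16) and Cdc25b, which activates cyclin-dependent kinase, at 0.66 (adjusted p = 0.0492). Cdkn3 lost its call without LSZ2 shSiva1 replicate 1 (adjusted p = 0.0514), and Cdc25b lost its call in 11 of 20 alternatives (highest adjusted p = 0.129). The D-type cyclins split. Ccnd2 read -2.02, -1.99, -4.63 and -4.86 with shSiva1 and 1.47, 1.23, -2.02 and -1.63 with shSiva2, a rise of 3.13 (SE 0.17, adjusted p = 4.03e-06), and Ccnd1 rose by 0.98 while Ccnd3 fell by 0.83. The hairpins overlap for Ccnd2 across the lines, since LSZ2 reads higher than LSZ4, and do not overlap within a line. Without the cell line term its call was lost (adjusted p = 0.0554). Of 36 ribosome biogenesis genes and Myc targets 5 were called higher and 1 lower, a share of 16.7%. Myc, Wdr12 and Npm1 rose by 0.86, 0.79 and 0.61. Pes1 was the gene called lower, at -0.78 (SE 0.17, adjusted p = 0.00974) on the probe used, but its 2 probes ran from -0.78 to 0.54. The Pes1 call was lost with normexp background correction and also when its probes were averaged. The nuclear-encoded genes of oxidative phosphorylation had 0 of 37 called in the limma test (1 higher and 0 lower at an unadjusted p under 0.05), and the alternatives called 0 to 1 higher and 0 to 2 lower. Their median was 0.24, and the smallest p belonged to Sdha, a subunit of complex II, at 0.45 (SE 0.18, adjusted p = 0.100) and Ndufa10, of complex I, at 0.47 (SE 0.21, adjusted p = 0.142).

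Stress and nutrient lists had shares called between 20% and 33.3%, against 22.2% of all genes. All but the unfolded protein response held calls in both directions. In the list of ATF4 and the integrated stress response, 6 of 30 were called higher and 4 lower, a share of 33.3%. Gdf15, a secreted stress signal, read 1.36, 1.96, -0.19 and 0.69 with shSiva1 and 3.22, 3.06, 2.47 and 3.16 with shSiva2, a rise of 2.02 (SE 0.30), and Stc2 rose by 1.45. Nupr1, a stress-induced chromatin protein, read 5.68, 6.02, 7.04 and 7.34 with shSiva1 and 3.99, 3.94, 4.82 and 4.92 with shSiva2, which fell by 2.10 (SE 0.17). The lipoprotein receptor gene Vldlr fell by 2.19 and Aars, an alanyl-tRNA synthetase, by 1.23. Of 25 genes of the unfolded protein response 5 were called higher and 0 lower (8 and 1 at an unadjusted p under 0.05), a share of 20% that is near the background, among them the chaperone gene Hyou1 at 1.36, Derl3 at 1.20 and calnexin, Canx, at 0.87, with Hyou1 and Derl3 losing their calls under normexp background correction (adjusted p = 0.124 and 0.899). In glycolysis 2 of 21 genes were called higher and 4 lower, a share of 28.6%. Slc16a3, a lactate exporter, fell by 3.47 (SE 0.36), Eno2 by 1.31, Pfkfb3, which makes the activator of phosphofructokinase, by 1.04 and Pfkp by 0.84, while Pfkl rose by 0.84 and Aldoc by 0.72. Eno2 lost its call with normexp background correction (adjusted p = 0.222). Of 23 hypoxia response genes 3 were called higher and 2 lower, a share of 21.7% that is near the background, including Ndrg1 at 1.05 and the lysyl oxidase gene Loxl2 at -1.45, whose 3 probes ran from -2.76 to -1.45.

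Inflammatory and growth signals also held calls in both directions. Of 24 NF-kB targets 4 were called higher and 6 lower, a share of 41.7% against 22.2% of all genes. Traf1, an adaptor of TNF receptors, read 0.59, 1.13, 3.24 and 3.88 with shSiva1 and -3.77, -3.94, -2.10 and -1.51 with shSiva2, which fell by 5.04 (SE 0.24). Csf2, the cytokine GM-CSF, fell by 3.27 (SE 0.15), the chemokine gene Ccl2 by 3.14, the inhibitor gene Nfkbie by 1.74 and Csf1 by 0.89. The NF-kB subunit gene Relb rose by 1.23 and the chemokine gene Cxcl1 by 1.04, of which 0.17 in LSZ2 and 1.92 in LSZ4. Among 22 immediate early genes, which growth factors and stress switch on within minutes, 7 were called higher and 4 lower, so that 11 of the 22 were called. Egr1 read -0.99, -0.84, -1.15 and -0.68 with shSiva1 and 0.61, 0.54, 1.61 and 2.00 with shSiva2, a rise of 2.10 (SE 0.26), Klf2 rose by 1.51, Fos by 1.31, Zfp36, which speeds the decay of cytokine transcripts, by 1.23 and Nr4a1 by 0.97. Jun and Junb, partners of Fos in AP-1, fell by 1.08 and 0.98 and Maff by 0.72. Fos lost its call with normexp background correction (adjusted p = 0.163). In MAPK output 6 of 27 genes were called higher and 3 lower, a share of 33.3%, among them Tgfa at 0.96, Dusp6, a phosphatase that feeds back on ERK, at 0.95, Etv4 at 0.88, Etv1 at -1.59 and Emp1 at -1.02. With normexp background correction Tgfa lost its call (adjusted p = 0.306).

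Markers of differentiation showed members of lung and gut on both sides. Of 17 lung alveolar and airway markers measured 4 were called higher and 4 lower, a share of 47.1% against 22.2% of all genes. Besides Sftpb, the alveolar gene Ager, above background on 1 shSiva1 array, rose by 1.40, Abca3, the lipid transporter of surfactant, by 0.86 and the club cell gene Scgb1a1, above background on 1 shSiva1 and 3 shSiva2 arrays, by 0.78, while the transcription factor genes Sox2 and Sox9 fell by 1.30 and 0.58, Cav1 by 1.22 and Lpcat1 by 0.89. Of 23 gut and gastric markers measured 8 were called higher and 5 lower, a share of 56.5%. Lgals4, a galectin of intestinal epithelium, read 7.05, 7.36, 5.65 and 6.44 with shSiva1 and 9.02, 8.90, 9.38 and 9.80 with shSiva2, a rise of 2.65 (SE 0.36), and Agr2, needed for mucus secretion, rose by 2.93 and the secreted peptide gene Tff3 by 2.07. Ctse, a gastric protease, read 3.44, 3.80, 3.18 and 3.46 with shSiva1 and 0.63, 0.71, -0.98 and -0.81 with shSiva2, which fell by 3.58 (SE 0.26). Villin, Vil1, fell by 1.91 and Onecut2 by 1.42. Of 16 measured markers of blood, immune and endothelial cells 1 was called higher, Fcer1g at 2.18, and 2 lower, S100a8 at -0.90 and Fcgr3, at least 2.32-fold lower, whose call was lost with normexp background correction (adjusted p = 0.174). Of the 31 on the array 12 were above background on 0 arrays. The summed signal of that list, unlogged after each array's scaling, was 26.1 to 37.3 with shSiva1 and 27.5 to 44.6 with shSiva2.

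**Figure D4:**
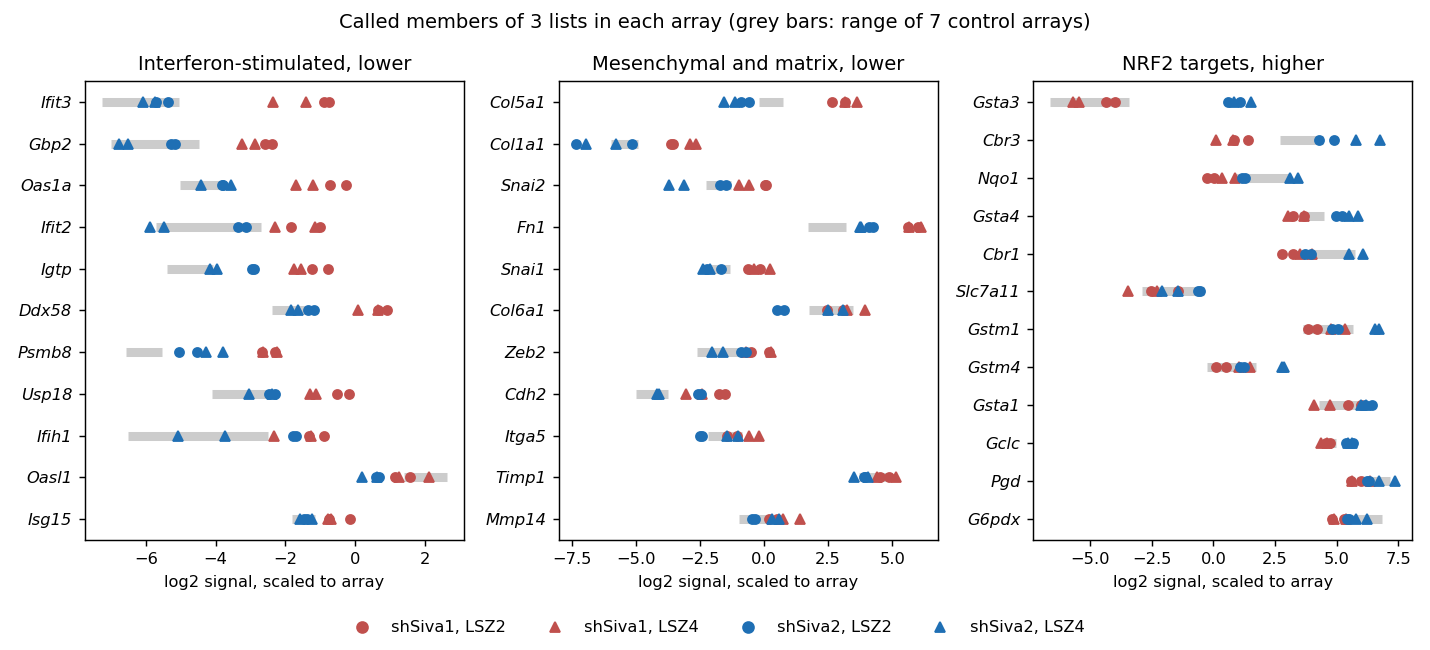
Log2 signal in each of the 8 arrays of interferon-stimulated genes and of mesenchymal and matrix genes called lower and of NRF2 targets called higher with shSiva2 (circles LSZ2, triangles LSZ4, red shSiva1, blue shSiva2), with grey bars for the range of the 7 control arrays. For Ifit3, Oas1a and Fn1 the shSiva1 points lie to the right of the grey bars, and for Gsta3 the shSiva2 points do. For Fn1 the shSiva2 points also lie to the right of the bar.

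Both lines showed the hairpin difference. In the fit of 4 line and hairpin means, 1742 genes (7.94%) were called in LSZ2, 512 higher and 1230 lower, and 3205 (14.6%) in LSZ4, 1567 higher and 1638 lower. These counts moved with single arrays: in LSZ2 to 984, 749, 820 and 878 without shSiva1 replicates 1 and 2 and shSiva2 replicates 1 and 2, and in LSZ4 to 6331 without shSiva1 replicate 2 and 1878 without shSiva2 replicate 2. The balance in LSZ4 moved too, to 1595 higher and 743 lower with normexp background correction and to 3971 and 2360 without shSiva1 replicate 2. Since the lines share no array, each could be set against the other. With the 4 LSZ2 arrays alone 4043 genes (18.4%) were called, and 95.7% of them had the same sign in the LSZ4 arrays. With the 4 LSZ4 arrays alone 2465 genes (11.2%) were called, and 97.1% had the same sign in the LSZ2 arrays, against 76.0% of all genes tested. These counts moved with the processing: in LSZ4 alone to 42 genes with normexp background correction (100% with the same sign in LSZ2) and 1203 with quantile normalization (99%), and in LSZ2 alone to 1820 with no filter (93.7% with the same sign in LSZ4). With normexp 4711 genes were called in LSZ2 alone, 87.9% of them with the same sign in LSZ4. Across all 21952 genes, which are not independent replicates and share the slide row, the changes in both lines had a Pearson correlation of 0.81.

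A difference between the lines in the size of the hairpin effect was called for 8 genes (0.0364%), with 983 at an unadjusted p under 0.05. Aqp8 rose by 2.41 in LSZ2 and 6.44 in LSZ4, Degs2 by 3.96 and 7.44, and Ly6d by 2.31 and 5.40. Lce1g and Lce1i, late cornified envelope genes with close paralogues, changed by -2.92 and -2.69 in LSZ2 and by -6.32 and -5.79 in LSZ4 (over both lines the 2 probes of Lce1i ran from -4.24 to -2.11), and Car12, a carbonic anhydrase gene, by -1.49 and -4.48. Tppp3 read -0.19, 0.18, -2.59 and -2.38 with shSiva1 and -2.54, -2.60, -1.79 and -1.07 with shSiva2, a change of -2.56 in LSZ2 and 1.05 in LSZ4. Cyp2d34 changed by -2.71 in LSZ2 and 0.24 in LSZ4. The 8 adjusted p-values were all 0.0451. The count was 0 without LSZ2 shSiva1 replicate 1 or 2, LSZ2 shSiva2 replicate 1 or either LSZ4 shSiva2 replicate, 1 without LSZ2 shSiva2 replicate 2, and 40 and 71 without LSZ4 shSiva1 replicate 1 and 2, so it rests on single arrays.

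**Figure D5:**
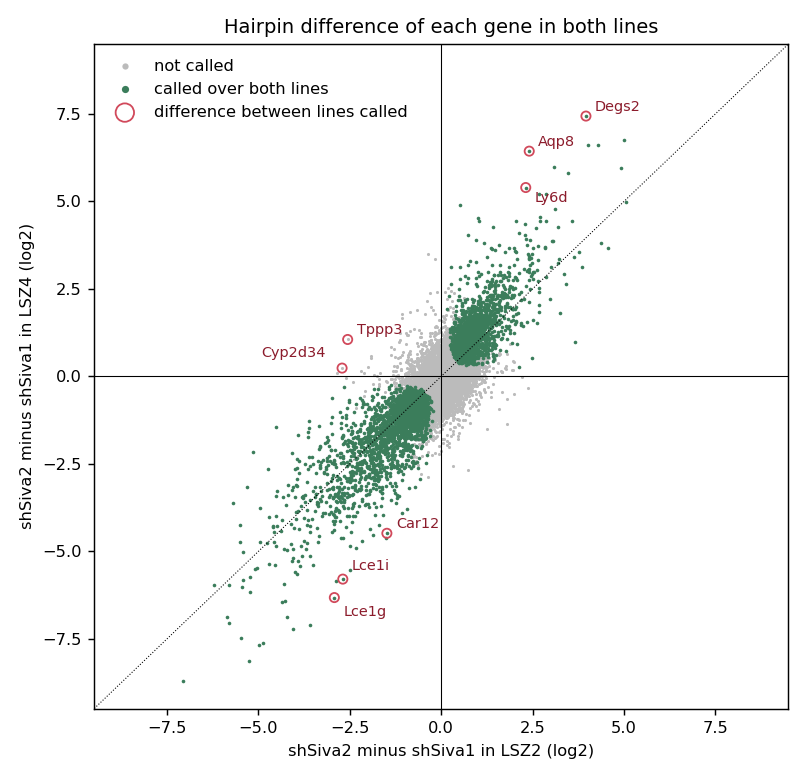
Log2 change of shSiva2 over shSiva1 for each of 21952 genes in LSZ2 (horizontal) and LSZ4 (vertical), with the 4878 genes called over both lines in green, the others grey, and the 8 genes whose change differed between lines circled. All called genes lie at the lower left or upper right, on the same side of 0 in both lines.

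The control level sat on either side of the hairpins, gene by gene. The control mean was taken as the mean of the LSZ2 control mean and the LSZ4 control mean, over the 7 control arrays. Of the 4878 called genes, the control mean was nearer to the shSiva2 mean for 67.4% and lay between the hairpin means for 66.7%. Over all genes tested the shares were 63.8% and 40.2%. Among genes that differed at least 2-fold, the control mean was nearer to shSiva2 for 75.6% of the 1433 lower genes and for 52.7% of the 886 higher genes. For the 1603 of both directions above background on all 8 arrays it was 64.7%, near the 63.8% of all genes. Bounds, which passed the filter through 1 hairpin alone, numbered 181 among lower and 9 among higher genes. The same limits of slide, vector and selection hold for these shares.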

How the data were processed

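Total RNA from each sample was hybridised to a 1-colour Agilent mouse array with mm9 probe coordinates, per the file headers. The deposited scanner files hold processed signal as intensity, after background subtraction and detrending; the headers name Feature Extraction 10.7.3.1. The authors also deposited log2 values that correspond to each array's 75th percentile scaling with the median of each probe over 15 arrays set to 0. These were used only as an alternative.

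From the intensity, log2 values less each array's 75th percentile were computed, without control spots and outlier flags. Probes well above background on at least 4 of 8 arrays were kept, with the probe of highest mean per gene. Symbols were updated through RefSeq. The hairpin difference was fitted with limma 3.58.1 (R 4.3.3, data.table version 1.17.8) with cell line as a term and Benjamini-Hochberg adjustment at 0.05, and a fit of 4 line and hairpin means gave changes within and between lines. The fit was also run on simulated data, built afterwards from the line means and spread of these arrays with independent errors. The number of arrays limits the precision.

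Named genes are Siva1, the 12 largest rises and falls called with the same sign in both lines (above background on all 4 arrays of the higher hairpin and at least 2 of the lower), the 4 largest bounds in each direction, the 2 list members with the smallest p, and the 4 largest differences between lines in each direction. Other called list members are named too. Some genes that met the rule, 1 of the largest falls among them, are not reported here and were not replaced; they remain in the counts over lists and over all genes. The members and gene lists were chosen with earlier results of these data known. In the replicate numbers of LSZ2 and LSZ4 the same-number correlations of deviations were -0.20 and 0.66, so the numbers were not taken to pair the arrays. Across the lines, LSZ2 shSiva1 gave 0.73 with LSZ4 shSiva1 and 0.55 with LSZ4 shSiva2. LSZ2 shSiva2 gave -0.25 and -0.19 with the same LSZ4 groups. The source of these shared deviations was not tested. Alternatives changed scaling, background correction, filter, probe choice, samples, model terms and single arrays. Matches of hairpin guides were left out, since their sequences were not used here.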

Additional observations from a re-analysis of the deposited data

Results flagged for a closer look

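The 188 groups of 4 arrays searched were those of named genes and of some array measures. Of them 4, all of named genes, held an array far from the other 3, by the gap to its neighbour as a share of the group's range. Chance alone gives about 1 in 20 where all 4 values come from 1 normal distribution. Each group here pools LSZ2 and LSZ4 arrays, so that rate need not hold. For Chrna1 with shSiva1 the share was 0.885, with LSZ2 replicate 2 at 1.97 and the others at 1.23 to 1.32. For Eno2 with shSiva2 it was 0.891 (LSZ4 replicate 2 at -4.06, others -4.93 to -4.83). For Ago1 with shSiva1 it was 0.842 (LSZ2 replicate 2 at -0.44, others -0.61 to -0.58). For Dhx58 with shSiva1 it was 0.833 (LSZ4 replicate 1 at -3.72, others -3.60 to -3.57).

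The change between hairpins differed between the lines for 8 genes in the interaction test (limma, adjusted p = 0.0451 each). As LSZ4 less LSZ2 on the log2 scale the difference was 4.03 for Aqp8, 3.61 for Tppp3, 3.48 for Degs2, 3.08 for Ly6d and 2.95 for Cyp2d34. It was -3.40 for Lce1g, -3.10 for Lce1i and -3.00 for Car12. The change had the same sign in both lines for 6 of the 8, with Tppp3 and Cyp2d34 the exceptions.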

How the results depend on the processing

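In 20 alternative settings 90 named genes were refitted, 60 of them in every setting and 30 in all but the filter on all 8 arrays, which removes them: 64 kept their direction and their side of the threshold in each setting that held them, 25 lost their call in at least 1 setting, most of them with normexp background correction, and 1 (Cyp2d34) gained one. Other called list members were not refitted singly. With normexp background correction 2401 genes were called and 549 in LSZ2. Genes that differed between lines numbered 0 with quantile normalization, normexp, no filter or the mean of all probes, 4 with the filter on all 8 arrays, 28 with median scaling and 38 with all 15 arrays. The Siva1 difference stayed 0.84 without a filter (adjusted p = 0.0689) and with all 15 arrays (0.0552). Leaving out 1 array at a time gave 3236 to 5094 genes called, 749 to 2428 in LSZ2, 1878 to 6331 in LSZ4, 0 to 71 that differed between lines, and a Siva1 difference of 0.64 to 0.97. The share of higher calls was 52.3%, and 43.5% to 59.0% over the alternatives. With the replicate block, whose numbers do not pair the arrays in LSZ2, 6524 genes were called, 2892 in LSZ2, 5785 in LSZ4 and 115 that differed between lines. Values near background limit the folds of dim genes.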
